A study of Homo sapiens with 32 samples.

Results

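The miR-130, miR-301 and miR-454 family was followed as the 5 rows mir-130a, mir-130b, mir-301a, mir-301b and mir-454 of a table of 1513 miRNA precursor rows. The rows were taken by name and not by a threshold on their values, although earlier results of these data were known. Each had a count in all 32 libraries. The libraries came from 8 clones of 293T, a human embryonic kidney line with the SV40 large T antigen. Clones 52, 55, 57 and 67 were wild type, and clones 30, 34, 42 and 43 had the genotype DGCR8 delta103-126Q, a prime-edited deletion of the reported contact site of the protein ERH. Every clone received 4 vectors in separate transient transfections, namely control shRNA_1, control shRNA_2, shERH_1 and shERH_2, the last pair directed against ERH. All cells were selected with puromycin, sorted on day 5 by a fluorescent protein that the vector encodes and used for total RNA. All 8 clones, the wild-type ones included, carried an shRNA vector, so the controls are cells that made a non-targeting shRNA and not untreated cells. Each genotype was represented by 4 clones, and ERH mRNA and the edit itself were not analysed here, which leaves the genotype and knockdown labels unchecked.

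A miRNA gene is transcribed as a long primary transcript with a hairpin in it. DROSHA and its RNA-binding partner DGCR8, together the Microprocessor, cut the hairpin out, DICER1 trims it to a short duplex, and an Argonaute protein keeps mostly one arm, which finds target mRNAs through its seed near the 5′ end. ERH is a small nuclear protein that binds DGCR8, and it is known for helping the Microprocessor to process poor hairpins that lie beside a good one in the same primary transcript. Members of the miR-130 family act through the 3p arm and share one seed.

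The mature 3p arms are shown because the shared seed defines the family and because the mir-301a and mir-301b arms are nearly alike. They are RefSeq sequences (GRCh38.p14), 5′ to 3′, with bases 2 to 8, the seed, in capitals:
hsa-miR-130b-3p: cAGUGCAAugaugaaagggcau
hsa-miR-301b-3p: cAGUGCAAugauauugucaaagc
hsa-miR-301a-3p: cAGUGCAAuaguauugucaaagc
hsa-miR-454-3p: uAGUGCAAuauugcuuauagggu

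For mir-130a the RefSeq hairpin is shown, with the same 7 letters in capitals toward its 3′ end:
MIR130A hairpin: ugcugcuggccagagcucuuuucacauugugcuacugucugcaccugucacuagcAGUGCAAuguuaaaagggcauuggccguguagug
In the RefSeq table, 6 of 2370 mature miRNAs (0.253%) carry AGUGCAA at bases 2 to 8, namely the 4 arms above, miR-3666 and miR-4295; hsa-miR-130a-3p is not among the entries counted. The mir-3666 row held 1 count in 1 library and the mir-4295 row 0 counts, so nearly all counts with this seed came from the family rows. Counted from 1 at the 5′ end, miR-301a-3p and miR-301b-3p differed at 2 of 23 bases, A10G and G11A (the base of miR-301a-3p first). By contrast, miR-130b-3p and miR-301b-3p, which come from neighbouring hairpins, shared their first 12 bases and differed at 9 of 22.

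In GENCODE release 29 (GRCh38) the hairpins formed a close pair, a distant pair and a solitary one. MIR301B lay at chr22:21652981-21653058 on the plus strand in an intron of the noncoding gene AP000553.1, and MIR130B at chr22:21653304-21653385 in an exon of the same gene. Only 245 bases separated them. MIR454 (chr17:59137758-59137872) and MIR301A (chr17:59151136-59151221) lay on the minus strand in introns of SKA2, a protein-coding gene of the mitotic spindle and kinetochore, with 13263 bases between them. MIR130A lay at chr11:57641198-57641286 on the plus strand in an intron of AP000662.1, with no other annotated hairpin on that strand within 897.216 kb. Among the 4 hairpins in the RefSeq table, RNAfold gave predicted folding energies of -42.2 kcal/mol for MIR130A (89 bases, 50.6% GC), -41.0 for MIR454 (115 bases, 39.1% GC), -35.8 for MIR130B (82 bases, 57.3% GC) and -30.2 for MIR301A (86 bases, 40.7% GC). The build behind the counts is not given in the sources used here.

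Libraries held 1318923 to 6222790 miRNA counts, with a median of 2299476.5, and the family took 0.393 to 0.661% of them. As a share of the family's counts over all libraries, mir-454 supplied 43.4%, mir-130b 36.3%, mir-301a 17.5%, mir-301b 2.67% and mir-130a 0.128%. By the median CPM, the count scaled to a common miRNA total per library, the rows ranked 59th for mir-454 (2335 CPM), 65th for mir-130b (1906 CPM), 87th for mir-301a (876 CPM), 172nd for mir-301b (142 CPM) and 397th for mir-130a (7.26 CPM). The 2 partners of the close pair thus stood far apart in level, and mir-130a, with 3 to 58 counts per library, was measured with much larger counting error than the rest. Each row held both arms of its hairpin. How the authors assigned reads that match both mir-301a and mir-301b is not given in the sources used here, so the split between these rows is uncertain.

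For the comparisons, each clone's 2 libraries with control shRNAs were added up, and likewise its 2 libraries with ERH shRNAs, which gave 16 sums, and these were scaled by the trimmed mean of M-values (TMM), which sets the trimmed mean difference between libraries to 0. All levels below are TMM-scaled CPM of these sums, and all fold changes are log2 values ± SE from edgeR's quasi-likelihood test, with Benjamini-Hochberg adjusted p-values over all rows tested. A row was called at an adjusted p under 0.05.

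**Figure D1:**
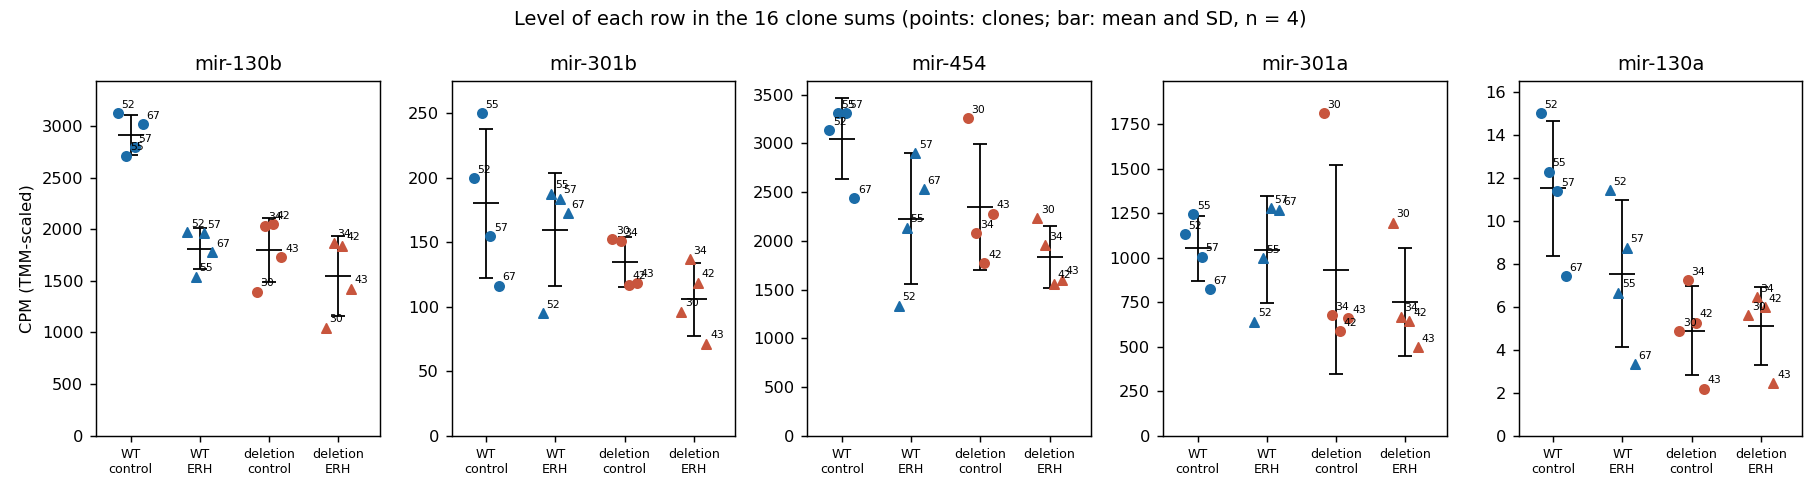
Level of each family row (y axis, TMM-scaled CPM, linear from 0) in the 4 combinations of genotype and shRNA arm; points are clones with their numbers, circles control and triangles ERH shRNAs, blue wild type and red deletion, and bars give mean and SD (n = 4). The 4 wild-type control clones of mir-130b, between 2712 and 3123 CPM, lie above all 12 other sums of that row, while clone 30 stands alone in the mir-301a panel at 1813 CPM.

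ERH shRNAs were followed by lower levels of mir-130b in all 8 clones. In wild-type clones 52, 55, 57 and 67, mir-130b stood at 3123, 2712, 2793 and 3016 CPM under control shRNAs and at 1969, 1540, 1962 and 1778 CPM under ERH shRNAs. In deletion clones 30, 34, 42 and 43 the values were 1395, 2033, 2051 and 1728 CPM under control and 1048, 1871, 1839 and 1422 CPM under ERH shRNAs. The arms did not overlap in wild-type clones, and in deletion clones they overlapped although each clone was lower. The share of all rows with no overlap between the arms was not counted. Over all clones mir-130b fell by 0.53 ± 0.12 on the log2 scale (edgeR adjusted p = 0.00130), and in wild-type clones alone by 0.77 ± 0.16 (edgeR adjusted p = 0.00168). In deletion clones alone the change was -0.26 ± 0.10 and was not called (edgeR adjusted p = 0.111). Of the 667 rows tested over all clones, 7.35% were lower in every clone, and mir-130b was the one member among them.

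The other row called over all clones was mir-454. Its levels in wild-type clones 52, 55, 57 and 67 were 3135, 3306, 3308 and 2438 CPM under control and 1332, 2132, 2901 and 2531 CPM under ERH shRNAs. Deletion clones 30, 34, 42 and 43 gave 3259, 2075, 1772 and 2278 CPM under control and 2232, 1956, 1558 and 1600 CPM under ERH shRNAs. In the sums, clone 67 was the one clone in which mir-454 was not lower, and the arms overlapped in both genotypes. By vector, mir-454 was lower in 7 of 8 clones with the first of each kind, and clone 34 was higher (0.22). With the second it was lower in 6 of 8 clones, and clones 67 (0.35) and 42 (0.48) were higher. It fell by 0.48 ± 0.12 over all clones (edgeR adjusted p = 0.00383) and by 0.58 ± 0.20 in wild-type clones (edgeR adjusted p = 0.0318). The wild-type call was lost on leaving out clone 52 (-0.33 ± 0.17, edgeR adjusted p = 0.130), clone 55 (-0.53 ± 0.26, edgeR adjusted p = 0.132) or clone 57 (-0.66 ± 0.25, edgeR adjusted p = 0.0792), and only without clone 52 was the change much smaller. In the sums of deletion clones mir-454 was lower in each clone, as were mir-130b and 14.7% of the 633 rows tested. Its change there of -0.35 ± 0.11 was not called (edgeR adjusted p = 0.0677) but was without clone 34 (-0.43 ± 0.11, edgeR adjusted p = 0.0106).

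Both partners with the lower counts of their pair, mir-301a and mir-301b, moved differently from clone to clone. In wild-type clones 52, 55, 57 and 67, mir-301a stood at 1134, 1244, 1007 and 825 CPM under control and at 640, 998, 1280 and 1269 CPM under ERH shRNAs. It was lower in clones 52 and 55 and higher in clones 57 and 67, and without clone 52 its wild-type change turned from -0.13 to 0.14. In clone 52 its log2 change was 0.25 with the first vector of each kind and -1.64 with the second. The first and second vectors also differed in sign in clones 57, 34 and 42. Deletion clones 30, 34, 42 and 43 gave 1813, 677, 588 and 659 CPM under control and 1196, 669, 644 and 499 CPM under ERH shRNAs. Over all clones mir-301a changed by -0.20 ± 0.13 (edgeR adjusted p = 0.249), which was not called.

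In the sums, the mir-301b row was lower and higher in the same clones as mir-301a. By vector, its log2 change in clone 52 was 0.12 with the first of each kind and -2.22 with the second. The vectors also differed in sign in clones 57 (0.02 and -0.05), 34 and 42. Levels of mir-301b were 199, 250, 155 and 116 CPM under control and 94.8, 188, 184 and 172 CPM under ERH shRNAs in wild-type clones 52, 55, 57 and 67. In deletion clones 30, 34, 42 and 43 they were 152, 151, 117 and 119 CPM under control and 96.0, 137, 118 and 71.2 CPM under ERH shRNAs. The change over all clones was -0.34 ± 0.15 and was not called (edgeR adjusted p = 0.0872), but it was called without clone 67 (-0.47 ± 0.15, edgeR adjusted p = 0.0240) and by DESeq2 (-0.39 ± 0.16, adjusted p = 0.0427).

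The solitary mir-130a was the thinnest row, with 12 to 69 counts per sum. Its wild-type clones 52, 55, 57 and 67 gave 15.02, 12.3, 11.4 and 7.43 CPM under control and 11.4, 6.66, 8.76 and 3.33 CPM under ERH shRNAs, lower in each clone, as were 16.3% of the 613 rows tested there. By vector, it was lower in 3 of these 4 clones with the first of each kind (0.02 in clone 52). With the second it was lower in 2 of 4 (0.08 in clone 55 and 0.09 in clone 57). Deletion clones 30, 34, 42 and 43 gave 4.87, 7.26, 5.27 and 2.18 CPM under control and 5.62, 6.46, 5.99 and 2.44 CPM under ERH shRNAs, with clone 34 alone lower. The change in wild-type clones was -0.76 ± 0.33 (edgeR adjusted p = 0.0852) and that in deletion clones 0.06 ± 0.31 (edgeR adjusted p = 0.925). Neither was called, while DESeq2 called the wild-type change (-0.90 ± 0.37, adjusted p = 0.0401), as did edgeR with each library as its own sample (-0.75 ± 0.30, adjusted p = 0.0423). That last fit counts the 2 libraries of a clone and arm as separate replicates, so its p-value does not rest on clones as replicates.

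In counts, 2 of the 5 rows were called for ERH shRNAs over all clones, both lower, beside 36.6% of the 667 rows tested in either direction and 16.5% lower. In wild-type clones 2 of 5 were called, both lower, beside 31.3% of 613 rows in either direction and 10.4% lower. In deletion clones none of the 5 was called by edgeR at the adjusted threshold, beside 10.3% of 633 rows in either direction, while DESeq2 called mir-454 (adjusted p = 0.0191), beside 94 of the 633 rows. There, 3 of the 5 (mir-130b, mir-301b and mir-454) had an unadjusted edgeR p under 0.05, all with values below 0, beside 188 of the 633 rows in either direction. The median change of the 5 rows over all clones was -0.39 and that of all rows tested 0.06. Between the 2 control vectors, control shRNA_2 minus control shRNA_1, mir-130b also differed somewhat (-0.27 ± 0.10, edgeR adjusted p = 0.309), and no row was called, beside 0% of 571 rows tested (48 rows at a raw p under 0.05 in edgeR, and 1 row called by DESeq2).

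The ERH vectors were also taken one at a time. With shERH_1 set against control shRNA_1, mir-130b was lower in 8 of 8 clones by a mean of -0.70 ± 0.35 (SD, n = 8). With shERH_2 against control shRNA_2 it was lower in 7 of 8 clones, by a mean of -0.28 ± 0.31 (SD, n = 8), and clone 34 was higher. Using the libraries of the second vector of each kind alone, edgeR called none of the 5 rows for the knockdown, beside 117 of 582 rows tested. There mir-130b changed by -0.27 ± 0.16 (edgeR adjusted p = 0.238) and mir-454 by -0.48 ± 0.20 (edgeR adjusted p = 0.0921). With the libraries of the first vectors alone, mir-130b and mir-454 were called over all clones, beside 166 of 586 rows tested. In deletion clones those libraries gave 3 calls, mir-130b (-0.46 ± 0.13, edgeR adjusted p = 0.0416), mir-301a (-0.56 ± 0.15, edgeR adjusted p = 0.0321) and mir-301b (-0.81 ± 0.18, edgeR adjusted p = 0.0146). Of all 562 rows tested in that fit, 84 were called. The difference between the ERH vectors was not tested. Between the 2 libraries of an arm, the root mean square log2 difference was 0.27 for mir-130b, 0.43 for mir-454, 0.54 for mir-301a, 0.65 for mir-301b and 1.06 for mir-130a, beside a median of 0.39 over 258 abundant rows.

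The deletion, without ERH shRNAs, was accompanied by lower mir-130b and mir-130a. Under control shRNAs mir-130b averaged 2911 ± 191 CPM in wild-type and 1802 ± 309 CPM in deletion clones (SD, n = 4 each), and the highest deletion clone, 2051 CPM, lay below the lowest wild-type clone, 2712 CPM. It was lower by 0.81 ± 0.18 log2 units (fold change -0.81, edgeR adjusted p = 0.0105). The corresponding means of mir-130a were 11.5 ± 3.14 and 4.89 ± 2.09 CPM, with a change of -1.36 ± 0.40 (edgeR adjusted p = 0.0297). Its groups lay close without overlap: the lowest wild-type clone gave 7.43 and the highest deletion clone 7.26 CPM. The mir-130a call was lost on leaving out any one of clones 30, 42, 43, 52, 55 and 57, with edgeR adjusted p-values of 0.0591 to 0.0775, and held without clone 34 or clone 67.

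For mir-454 the means under control shRNAs were 3047 ± 414 and 2346 ± 643 CPM, a change of -0.51 ± 0.21 (edgeR adjusted p = 0.0916). For mir-301b they were 180 ± 57.7 and 135 ± 19.4 CPM, and for mir-301a 1053 ± 180 and 934 ± 587 CPM, with edgeR adjusted p-values of 0.156 and 0.510. The groups of all these rows overlapped. Clone 30 decided 2 of them: without it, mir-301a changed by -0.78 ± 0.22 (edgeR adjusted p = 0.0247) and mir-454 by -0.65 ± 0.20 (edgeR adjusted p = 0.0418), and both were called. With all clones, 2 of 5 rows were called, both lower, beside 25.9% of 536 rows in either direction and 7.09% lower. Of all rows tested, 6.72% were lower in the deletion clones without overlap, mir-130a and mir-130b among them.

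Under ERH shRNAs the genotypes overlapped for every member, while 1.93% of 569 rows were lower in deletion clones without overlap. Wild-type and deletion means were 1812 ± 202 and 1545 ± 389 CPM for mir-130b, 2224 ± 673 and 1837 ± 318 CPM for mir-454, and 1047 ± 300.8 and 752 ± 306 CPM for mir-301a (SD, n = 4 each). The smaller rows gave 160 ± 43.6 and 106 ± 28.4 CPM for mir-301b, and 7.55 ± 3.42 and 5.13 ± 1.82 CPM for mir-130a. All 5 fold changes were below 0, between -0.61 (mir-301b) and -0.24 (mir-130b), with edgeR adjusted p-values of 0.320 to 0.574, and neither edgeR before adjustment (p under 0.05) nor DESeq2 after adjustment picked out any of the 5. No row of the whole table was called either, beside 0% of 569 rows (87 rows at a raw p under 0.05 in edgeR, and 8 called by DESeq2).

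Deletion clones with ERH shRNAs, set against wild-type clones with control shRNAs, combined both changes. Here mir-130b was lower by 0.96 ± 0.20 (fold change -0.96, edgeR adjusted p = 0.00199), with all 4 deletion clones at 1871 CPM or below and all 4 wild-type clones at 2712 CPM or above. The groups of mir-454 also lay apart, 2232 CPM against 2438 CPM at the nearest, with a change of -0.78 ± 0.20 (edgeR adjusted p = 0.00737). For mir-130a the change was -1.21 ± 0.39 (edgeR adjusted p = 0.0235), with no overlap, and the call was lost without clone 43 (edgeR adjusted p = 0.0616) or clone 52 (edgeR adjusted p = 0.0626). For mir-301b it was -0.82 ± 0.30 (edgeR adjusted p = 0.0398), with overlapping groups and a call lost on leaving out any of clones 30, 42, 43, 52, 55 and 57 (edgeR adjusted p = 0.0554 to 0.123). The row mir-301a was not called (-0.53 ± 0.28, edgeR adjusted p = 0.141). It was called by DESeq2 (-0.76 ± 0.30, adjusted p = 0.0265), which called all 5 rows, beside 293 of the 553 rows tested. It was also called by edgeR without clone 30 (-0.87 ± 0.23, edgeR adjusted p = 0.0106). Thus 4 of 5 rows were called, all lower, beside 46.8% of 553 rows in either direction and 16.5% lower. Of all rows tested, 12.3% were lower with no overlap. This comparison shares its wild-type control sums with the deletion comparison and with the knockdown in wild-type clones, so the 3 are not independent.

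**Figure D2:**
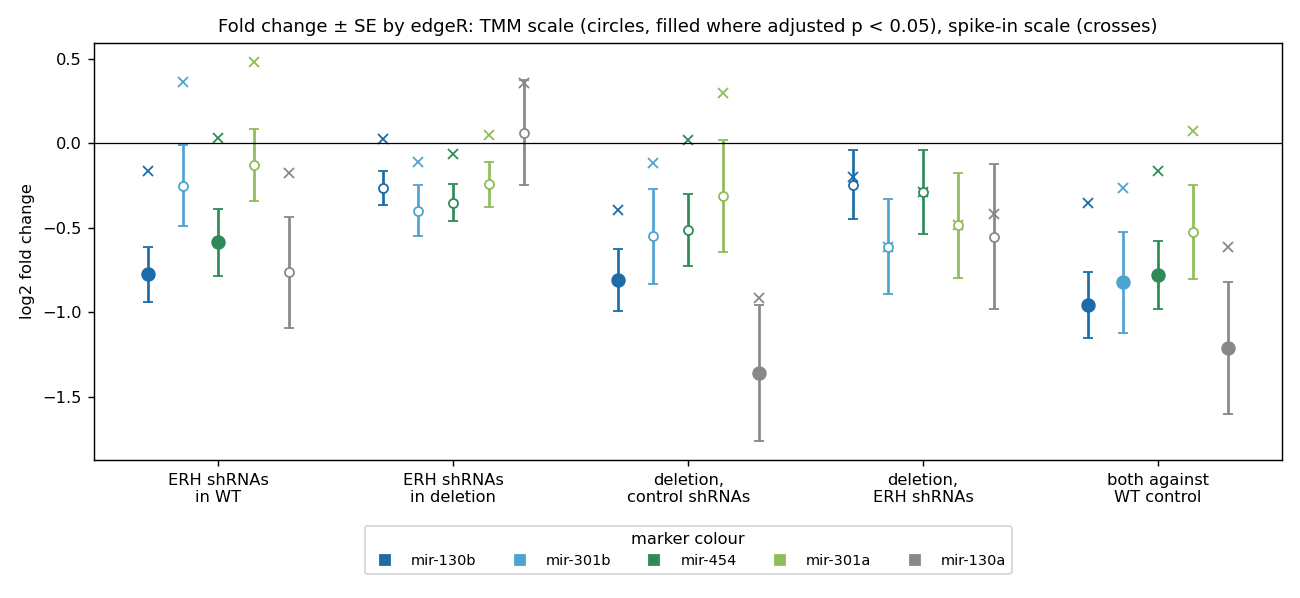
Log2 fold change (y axis) of each family row in 5 comparisons, with circles for TMM scaling ± SE (filled where called) and crosses for spike-in scaling; the line marks 0. With TMM scaling all values lie below 0 except mir-130a in deletion clones (0.06), and with spike-in scaling mir-301a lies above 0 in every comparison except the deletion under ERH shRNAs, and each other row in 1 or 2 comparisons.

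These directions are relative to the scaling, since counts of small RNA give shares. With scaling by the 4 added reference RNAs the median of all rows itself shifted, to 0.52 for ERH shRNAs over all clones (0.06 with TMM) and to 0.42 for the deletion under control shRNAs (-0.03 with TMM). On that scale none of the 5 rows was called in any comparison, and for ERH shRNAs mir-130b changed by -0.07, mir-454 by -0.02, mir-130a by 0.08, mir-301b by 0.12 and mir-301a by 0.26. The distance from the median of all rows hardly moved. For ERH shRNAs over all clones, mir-130b lay 0.59 log2 units below it with TMM (difference -0.59) and -0.58 with spike-in and total scaling, and mir-454 lay at -0.54, -0.54 and -0.53. All 5 rows lay below the median of all rows under each of the 3 scalings in this comparison, in the deletion under either arm, and in the combined comparison. The same held between the 2 control vectors, so lying below the median was not particular to ERH shRNAs or the deletion. With TMM the distances there were -0.28 to -0.05, beside -0.59 to -0.26 for ERH shRNAs over all clones. For ERH shRNAs in deletion clones, mir-130a alone lay above it. The calls given here are thus changes relative to the other miRNAs, and a change per spike-in was not detectable.

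Whether ERH shRNAs acted differently in the genotypes was tested as an interaction over all 16 sums. The change of mir-130b averaged -0.69 ± 0.13 in wild-type and -0.24 ± 0.13 in deletion clones (SD, n = 4 each). In the sums and with the first vectors the 2 sets of clones did not overlap. With the second vectors they did, as deletion clone 30 (-0.42) lay below wild-type clones 52 (-0.31) and 57 (-0.34). The share of all rows without such overlap was not counted. The interaction was 0.59 ± 0.16, with a raw p of 0.00236 and an edgeR adjusted p of 0.105, so it was not called. It was called by DESeq2 (0.63 ± 0.18, adjusted p = 0.0158), with each library as its own sample (0.52 ± 0.15, edgeR adjusted p = 0.0226) and without clone 52 (0.65 ± 0.16, edgeR adjusted p = 0.0355). The single-library fit counts the 2 libraries of a clone and arm as separate replicates. The interaction was not called in any other alternative, either vector alone and leaving out any other clone included. It was 0.19 with spike-in scaling (edgeR adjusted p = 0.862) and 0.36 with total scaling (edgeR adjusted p = 0.216). For mir-130a it was 0.89 ± 0.41 (edgeR adjusted p = 0.240), and for mir-454, mir-301a and mir-301b between -0.07 and 0.31 (edgeR adjusted p-values of 0.481 to 0.965). No row was called, beside 0% of 667 rows (127 rows at a raw p under 0.05 in edgeR, and 16 called by DESeq2). Wild-type and deletion clones started from different control levels of mir-130b, as given above.

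Ratios of 2 rows within a sum need no scaling, and they tested whether the partners of a pair moved together. The 2 libraries of a sum were added as raw counts, so the deeper one weighs more. In clone 57 under ERH shRNAs they held 2464819 and 6222790 miRNA counts. For the distant pair, the log2 count ratio of mir-301a to mir-454 in wild-type clones 52, 55, 57 and 67 was -1.47, -1.41, -1.72 and -1.56 under control and -1.06, -1.10, -1.18 and -0.996 under ERH shRNAs. In deletion clones 30, 34, 42 and 43 it was -0.85, -1.62, -1.59 and -1.79 under control and -0.90, -1.55, -1.28 and -1.68 under ERH shRNAs. The ratio was thus higher under ERH shRNAs in every wild-type clone with no overlap between the arms, and in 3 of 4 deletion clones. The mean change over all clones was 0.28 ± 0.22 (SD, n = 8; two-sided exact permutation test over sign flips, p = 0.0156; Benjamini-Hochberg adjusted p = 0.343 for the 24 ratio tests), so it did not pass the correction. By genotype it was 0.46 ± 0.12 in wild-type and 0.11 ± 0.15 in deletion clones (SD, n = 4 each), and the difference of -0.35 gave an exact permutation p of 0.0571 (adjusted p = 0.381).

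The close pair behaved less uniformly. The log2 ratio of mir-301b to mir-130b was -3.97, -3.44, -4.18 and -4.70 under control and -4.38, -3.04, -3.42 and -3.37 under ERH shRNAs in wild-type clones 52, 55, 57 and 67. In deletion clones 30, 34, 42 and 43 it was -3.20, -3.75, -4.13 and -3.86 under control and -3.45, -3.77, -3.96 and -4.32 under ERH shRNAs. It was higher under ERH shRNAs in clones 55, 57, 67 and 42 and lower in the other 4. Its mean change of 0.19 ± 0.62 (SD, n = 8) was within the spread between clones (exact permutation p = 0.438, adjusted p = 0.656), and a shift of the weaker partner against its neighbour was not detectable with this spread. Of the 4 ratios to the solitary mir-130a, the lowest p belonged to mir-301b over mir-130a for the deletion under control shRNAs (0.94 log2 units higher, exact permutation p = 0.0286, the smallest that 70 arrangements can give, adjusted p = 0.343). None of the 24 ratio tests passed an adjusted p of 0.05.

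**Figure D3:**
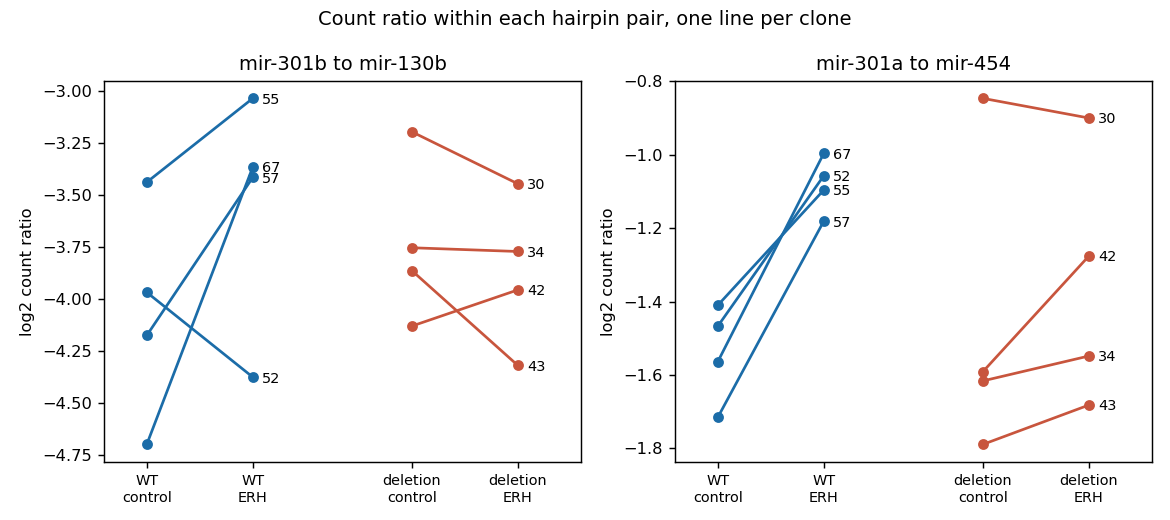
Log2 ratio of counts (y axes, ranges differ between panels) of mir-301b to mir-130b and of mir-301a to mir-454 for each clone, with lines joining the control and ERH arms of a clone; blue wild type, red deletion. In the right panel all 4 wild-type lines rise, by 0.31 to 0.57, while in the left panel 3 wild-type lines rise and that of clone 52 falls.

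Within clones, the changes of the near-identical mir-301a and mir-301b ran together, and those of the neighbours mir-301b and mir-130b did not. Across the 8 clones, the change of mir-301b under ERH shRNAs correlated with that of mir-301a, on another chromosome, at a Pearson r of 0.99, with no clone differing by more than 0.33 log2 units. With its neighbour mir-130b the r was -0.03, with gaps of up to 1.33 log2 units. The changes of mir-301a and mir-454 correlated at 0.89, those of mir-301b and mir-454 also at 0.89, and those of mir-130a and mir-130b at 0.83. These values are descriptions over 8 clones whose rows share libraries and scaling, and the difference between the correlations was not tested. The log2 ratio of mir-301a to mir-301b counts lay between 2.17 and 2.88 in 14 sums and at 3.58 and 3.64 in clone 30, so the rows did not keep a fixed proportion in every clone. As stated above, reads that fit both rows could tie them together, and their part in the correlation was not tested.

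**Figure D4:**
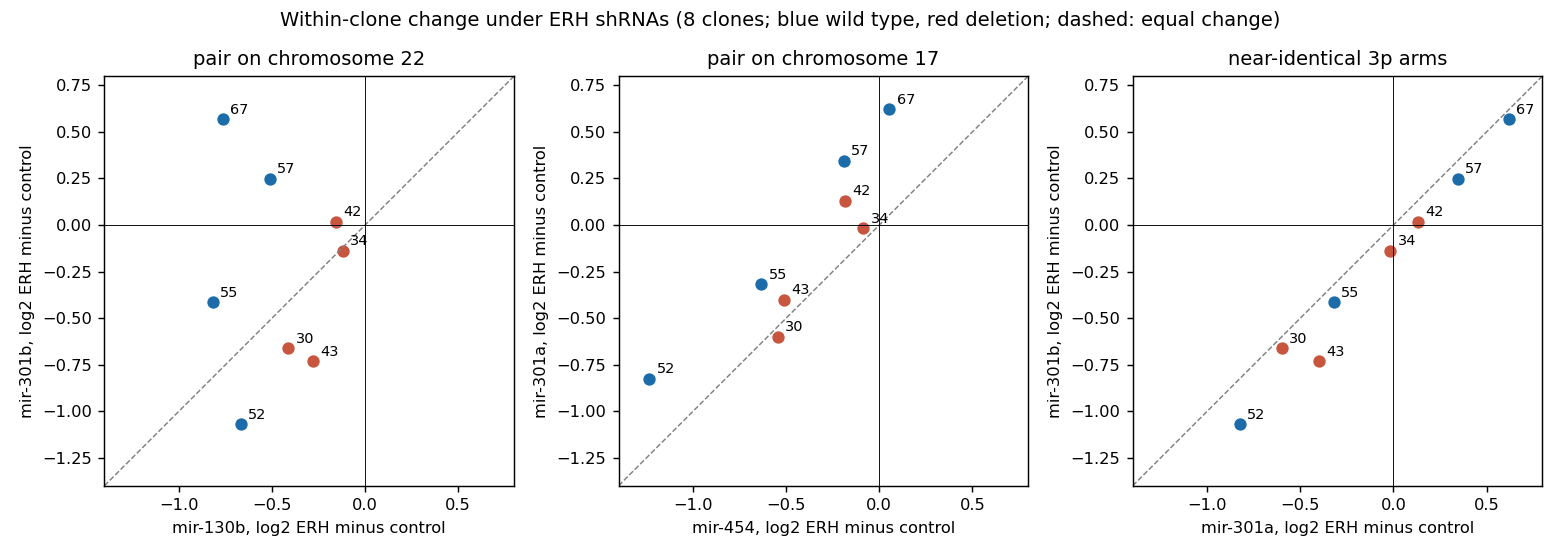
Change under ERH shRNAs in each clone (log2 CPM, ERH minus control) for 3 pairs of rows, with blue wild-type and red deletion clones, numbered, and a dashed line of equal change. The points spread away from the line for mir-301b against mir-130b (r = -0.03) and lie along it for mir-301b against mir-301a (r = 0.99).

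Clone 30 stood apart for mir-301a. Its control sum of 1813 CPM compares with 588 to 677 CPM in the other deletion clones and 825 to 1244 CPM in wild-type clones, and its mir-301b level of 152 CPM lay within the range of the other clones. The blood cell miRNAs mir-142 and mir-223 were also high there. Under control shRNAs mir-142 stood at 2161 CPM against 160 to 753 CPM in the other clones, and mir-223 at 258 CPM against 10.3 to 82.5 CPM. Clone 34 was the next highest for both (753 and 82.5 CPM), with mir-301a at 677 CPM. In the same arm of clone 30, mir-126 (5904 CPM) lay within the 2823 to 6770 CPM of the other clones. There mir-199a, at 198 CPM, lay above their 81.0 to 174 CPM. Of 7 listed miRNAs of liver, blood, muscle and nerve cells (mir-122, mir-142, mir-223, mir-1, mir-133a, mir-206 and mir-124), 7 were in the table, and mir-206 had a median count of 0. The summed level of the 7 was taken per library as CPM of the miRNA total, without TMM scaling, unlike the levels above. It ranged over 278 to 3905 CPM in deletion control, 408 to 1636 in deletion ERH, 335 to 855 in wild-type control and 240 to 910 in wild-type ERH libraries. The part of these miRNAs in the mir-301a level was not tested.

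Likeness was taken as the correlation of log2 CPM over the 16 sums, among 365 rows outside the family averaging at least 10 CPM. The rows most like mir-130b were mir-23b (r = 0.87), mir-769 (0.85) and mir-1306 (0.84). The nearest to mir-454 were mir-16 (r = 0.92), mir-126 (0.87) and mir-9 (0.84), and to mir-301a they were mir-9 (r = 0.91), mir-126 (0.88) and mir-194 (0.85). For mir-301b they were mir-30e (r = 0.81), mir-126 (0.80) and mir-101 (0.79), and for mir-130a mir-125b (r = 0.80), mir-193a (0.76) and mir-378f (0.74). The members were left out of this ranking, so it cannot show how near they lay to each other. Among them the highest r over the same sums was 0.81, for mir-301a with mir-454, and the lists of these 2 rows shared mir-126 and mir-9. The sums are 2 per clone and share scaling, so these values only describe the pattern.

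Other neighbouring hairpins were also mostly lower. Of 18 rows in 9 further pairs, among them mir-221 with mir-222 and mir-425 with mir-191, 12 were called lower by edgeR for ERH shRNAs over all clones (16.5% of all rows tested were), 10 in wild-type clones (10.4% of all), 6 in deletion clones (38 of 633 rows in all) and 4 for the deletion under control shRNAs (7.09% of all). In the combined comparison 9 of the 18 were called lower (16.5% of all) and for the deletion under ERH shRNAs 0 (0% of all), and 0 were called higher in any of these. Their median change was -0.39 for ERH shRNAs over all clones, the same to 2 decimals as that of the family, and -0.52 for the deletion under control shRNAs, beside -0.55 for the family. The difference between the lists was not tested.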

How the data were processed

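The authors deposited a table of raw counts by precursor and library, per the file headers, as whole numbers, with 4 spike-in rows. The submitters' processing notes name SAMtools; aligner, annotation, build, trimming and use of molecular identifiers are not given in the sources used here, so amplification copies may be among the counts. Per the labels' protocols, 400 ng of RNA with spike-ins were made, and 100 ng entered QIAseq miRNA libraries, whose ligation favours some ends. Counts were summed per clone and arm, filtered with filterByExpr (minimum count 10), TMM-scaled and tested with edgeR 4.0.16 (R 4.3.3) by the quasi-likelihood test; SE is |log2 fold change| over the root of F, and log2 CPM used a prior count of 2. Knockdown and interaction fits had the clone as block, since each clone received all vectors; control and ERH deviations of a clone correlated at 0.42 to 0.86 over 314 rows. Ratios were tested by exact permutation (scipy 1.17.1; 256 sign flips, smallest p 0.00781, or 70 arrangements). Library pairs within groups differed beyond sampling noise (chi-square per degree of freedom at least 48.9 over 48 pairs). Clones were separate, but the p-values cover only these clones. Alternatives were DESeq2 1.42.0, spike-in or total scaling, dropping the filter or requiring 100 counts on average, single vectors, single libraries, no block, and leaving out each clone. Named rows were the family, its 3 nearest rows by correlation, rows with the same seed, and listed pairs and markers; the members and lists were chosen with earlier results of these data known. The fits were tested on simulated data.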

Additional observations from a re-analysis of the deposited data

Results flagged for a closer look

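In 2 of 44 groups of 4 clones checked, 1 clone lay further from the others than Dixon's critical value for the gap divided by the range allows, and chance alone gives about 1 such group in 20. The mir-301a level of deletion clone 30 under control shRNAs was 1813 CPM, with 588 to 677 CPM in the other deletion clones (gap over range 0.927). The mir-301b level of wild-type clone 52 under ERH shRNAs was 94.8 CPM, with 172 to 188 CPM in the other wild-type clones (gap over range 0.835). By library, clone 52 gave 147 CPM with shERH_1 and 51.5 CPM with shERH_2.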

How the results depend on the processing

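Calls of the family rows changed most with the scaling. With spike-in scaling 0 of the 5 rows were called in any comparison, and with total miRNA scaling 1 was called for ERH shRNAs over all clones, 1 in wild-type clones and 0 for the deletion under control shRNAs or the combined comparison. The split of all called rows for ERH shRNAs over all clones was 134 higher and 110 lower with TMM, 233 and 22 with spike-in, and 210 and 36 with total scaling. For the deletion under control shRNAs it was 101 and 38, 134 and 0, and 154 and 4. In the combined comparison it was 168 and 91, 238 and 20, and 231 and 24. DESeq2, by contrast, gave 129 and 130, 108 and 69, and 150 and 143 in these 3. Over all alternatives the called rows ran from 28 to 281 for ERH shRNAs over all clones (244 in the fit reported), 20 to 259 in wild-type clones (192), 13 to 119 in deletion clones (65), 35 to 177 for the deletion under control shRNAs (139), 134 to 293 for the combined comparison (259), 0 to 8 for the deletion under ERH shRNAs, 0 to 52 for the interaction and 0 to 1 between control vectors.

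Without the replicate block, 0 family rows were called for ERH shRNAs over all clones and 1 in wild-type clones. With the libraries of the second vectors alone, 0 were called in both (mir-454 at -0.48 over all clones and -0.80 in wild-type clones, mir-130b at -0.27 and -0.61), and 1 for the deletion under control shRNAs. In the combined comparison the first and the second vectors alone each gave 3. The first vectors alone, with as many libraries as the second, gave 2 over all clones and 2 in wild-type clones. They gave 3 in deletion clones and 1 for the deletion under control shRNAs. No filter gave 1 in deletion clones and 1 for the deletion under control shRNAs, and a mean of at least 100 counts, which drops mir-130a, gave 1 in wild-type clones, 1 for the deletion under control shRNAs and 2 in the combined comparison. DESeq2 called 3 family rows over all clones, 3 in wild-type clones, 1 in deletion clones, 5 in the combined comparison and 1 in the interaction. Single libraries as samples, which are not independent replicates within a clone and arm, gave 3 in wild-type clones and 1 in the interaction. Leaving out 1 clone at a time gave 1 to 2 family rows for ERH shRNAs in wild-type clones, 0 to 2 in deletion clones, 1 to 3 for the deletion under control shRNAs, 2 to 4 in the combined comparison and 0 to 1 in the interaction.

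Signs turned mostly for uncalled rows. With spike-in scaling the log2 changes for ERH shRNAs over all clones were 0.083 for mir-130a, 0.26 for mir-301a and 0.12 for mir-301b, in wild-type clones 0.48 for mir-301a, 0.36 for mir-301b and 0.030 for mir-454, and in deletion clones 0.028 for mir-130b and 0.048 for mir-301a. On the same scale the deletion under control shRNAs gave 0.30 for mir-301a and 0.022 for mir-454, the combined comparison 0.073 for mir-301a, the interaction -0.091 for mir-454, and the control vectors 0.075 for mir-130a and 0.11 for mir-454. With total scaling mir-301a gave 0.076 over all clones, 0.21 in wild-type clones and 0.086 for the deletion, mir-301b 0.089 in wild-type clones, and mir-454 0.0054 between control vectors. The first vectors alone gave 0.041 for mir-301a in wild-type clones, -0.41 for mir-130a in deletion clones and 0.16 for mir-301a in the deletion comparison. The second vectors alone gave 0.031 for mir-301a in deletion clones, and interactions of 0.43 for mir-301a and 0.50 for mir-301b. DESeq2 gave an interaction of 0.011 for mir-301a, and the fit with no replicate block 0.017 for mir-454 between control vectors. Leaving out 1 clone gave -0.35 to 0.14 for mir-301a and -0.49 to 0.060 for mir-301b in wild-type clones, interactions of -0.27 to 0.14 and -0.32 to 0.13 for the same rows, and control vector differences of -0.25 to 0.13 for mir-130a and -0.12 to 0.035 for mir-454.

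Among ratios, the second vectors alone gave, for mir-301b to mir-130b, -0.12 for the deletion under control shRNAs and 0.11 for the difference of the knockdown changes, and for mir-301a to mir-454 -0.21 and 0.065. They also gave knockdown changes of -0.19 for mir-301b and -0.068 for mir-301a over mir-130a, and 0.19 for mir-301b over mir-130a for the deletion under ERH shRNAs, which was 0.015 with the mean of library log2 ratios. The first vectors alone gave knockdown changes of 0.11 for mir-130b and 0.40 for mir-454 over mir-130a, and -0.049 for mir-301a over mir-130a for the deletion under ERH shRNAs. Leaving out 1 clone gave -0.13 to 0.19 for mir-301a to mir-454 under the deletion with control shRNAs, and knockdown changes over mir-130a of -0.21 to 0.16 for mir-301b and -0.060 to 0.31 for mir-301a. For the deletion under ERH shRNAs it gave -0.043 to 0.60 for mir-130b, -0.55 to 0.33 for mir-301b, -0.45 to 0.47 for mir-301a and -0.19 to 0.71 for mir-454, each over mir-130a. The cause of these changes was not tested. Counts limit mir-130a, at 3 to 58 per library.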
